A study of Mus musculus with 16 samples.

Results

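The genes described here are 10 members of the transforming growth factor beta (TGF-beta) and bone morphogenetic protein (BMP) pathway, taken by symbol from a deposited count table of mouse RNA. They are the ligands Tgfb1, Tgfb2, Tgfb3 and Bmp4, the receptors Tgfbr1 and Tgfbr2, the inhibitory SMADs Smad6 and Smad7, the corepressor Skil and the target gene Id1. The table lists 40840 genes, of which 20444 had 10 or more counts in total and were tested, and all 10 members were among them.

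The study asked how sorafenib, a kinase inhibitor used against hepatocellular carcinoma, affects the metabolism and mitochondria of liver tumour cells. Its cells were cultured mouse hepatoblasts (fetal liver progenitors) that lack p53 and carry Myc, labelled as a cell line of hepatocellular carcinoma. The solvent DMSO or 8.5 µM sorafenib was given for 48 h or for 7 days, with n = 4 libraries in each of the 4 groups, and polyadenylated RNA was sequenced. All 16 libraries share the p53-/- and Myc background, so no group shows the pathway without it. Total counts per library ran from 16586254 to 30828427 with a median of 26360677. The labels do not say whether the replicates came from separate cultures, so the p-values below measure only the spread between these libraries.

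TGF-beta ligands are secreted in a latent form and, once released, bring together the type II receptor Tgfbr2 and the type I receptor Tgfbr1, which phosphorylates SMAD proteins that enter the nucleus and bind DNA. BMP ligands act in the same way through other receptors and other SMADs, and both branches induce inhibitors of themselves, so that pathway activity and the expression of its brakes are linked. In the liver, TGF-beta restrains the growth of hepatocytes and drives scarring by stellate cells, and BMP signals pattern the fetal liver.

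The labelled cell type was compared with marker genes. The hepatocyte regulator Hnf4a had 0 counts in all 16 libraries, albumin (Alb) had 0 to 1 counts, Prom1 0 to 4, the fetal liver gene Afp 0 to 14, and Epcam 1 to 37, so these markers of hepatoblasts were absent or low. Dlk1, a surface protein of fetal liver progenitors, was the most abundant gene of the list of 11 hepatoblast markers, with means of 32234 normalized counts in DMSO and 10444 in sorafenib at 48 h, and 16766 and 4020.2 at 7 days. A normalized count is a count divided by its library's TMM effective size and scaled to the typical library. Krt19 and Sox9, expressed in bile duct cells and progenitors, were present with 2626 and 213 mean normalized counts in DMSO at 48 h. Trp53 kept 1268 to 4799 counts per library, and a total for the whole gene does not show which exons were deleted. Myc had 4226 to 17797 counts per library. These ranges are not scaled for depth, and Myc lies in the stretch lowered in sorafenib 48 h replicate 2, described below.

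Marker genes moved with treatment and time. Summed over the 11 hepatoblast markers, the normalized counts were 36175, 34811, 34877 and 36148 in the 4 DMSO libraries and 13179.5, 14015, 12327 and 12242 in the 4 sorafenib libraries at 48 h. At 7 days the same sum was 20169, 18613, 19203 and 18306 in DMSO and 6040.4, 6309.6, 6209 and 6202 in sorafenib, lower with the drug at both times. Of its 8 tested genes, 1 rose and 5 fell at 48 h and 1 rose and 6 fell at 7 days by the edgeR test. The 8 markers of stellate cells and fibroblasts, with collagen gene Col3a1 the most abundant, summed to 73838, 74741, 74583 and 73407 normalized counts in DMSO and 46603, 51682, 45633 and 48370.0 in sorafenib at 48 h. Their sum at 7 days was 46381, 44848, 47556 and 45500.5 in DMSO and 10799.5, 10881, 10739 and 11193 in sorafenib, again lower with the drug. Among their 6 tested genes 1 rose and 4 fell at 48 h and 0 rose and 5 fell at 7 days. The stellate cell genes Lrat, with 0 counts in all 16 libraries, and Reln, with 0 to 2 counts, were absent or nearly so. Endothelial markers, with Kdr the most abundant, summed to 58.6, 67.7, 102 and 70.0 normalized counts in DMSO and 133, 160.3, 129 and 124 in sorafenib at 48 h, and to 44.3, 52.3, 73.4 and 51.9 in DMSO and 205, 236, 227 and 212 in sorafenib at 7 days, low but higher with the drug at both times. Immune markers, with Cd68 the most abundant, summed to 88.0, 80.7, 75.5 and 77.8 in DMSO and 89.8, 80.1, 61.9 and 75.0 in sorafenib at 48 h, and to 125, 146, 131 and 157 in DMSO and 77.6, 86.9, 75.2 and 80.7 in sorafenib at 7 days, where they were lower with the drug. Of the 5 tested endothelial markers 2 rose and 1 fell at 48 h (1 rose and 1 fell without sorafenib 48 h replicate 2, described below) and 2 rose and 2 fell at 7 days, and of the 2 tested immune markers 0 rose and 0 fell at 48 h and 0 rose and 1 fell at 7 days. For comparison, edgeR called 54.6% of all tested genes at 48 h and 56.8% at 7 days. Among tested genes that averaged 100 or more normalized counts it called 76.4% and 76.3%. The called shares of the hepatoblast list (75% and 87.5%) and the stellate and fibroblast list (83.3% at both times) lie near the latter. In bulk RNA, fewer cells of a type and less RNA per cell cannot be told apart, and the part of these markers in the changes of the members was not tested.

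One of the 16 libraries stood apart along the genome. In sorafenib at 48 h replicate 2, which also had the lowest total of 16586254 counts, genes beyond a point on chromosome 14 (start 103350847, GRCm39) and on the later chromosomes through 19 and X were lower as a group than in the other replicates. Of the 10368 genes compared, 2238 lie in this stretch, and their median level relative to the rest was 0.605 of that in the other 3 libraries of its group. The SD of the log2 ratio between this replicate and each of the others of its group was 0.334 to 0.336, against 0.118 to 0.139 among those others. Smad7, on chromosome 18, is the only member in the lowered stretch, and its comparisons that use this library are also given without it. Genes outside the stretch, the other members among them, were slightly higher in this library. Their median log2 difference from the other replicates was 0.09.

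Another library, DMSO 7 day replicate 4, had more of its counts in its most abundant genes. Its 10 most abundant genes held 6.26% of its counts, against 3.83% to 3.87% in the other 3 libraries of its group, and in DMSO at 48 h this share ran from 4.63% to 6.75%. The SD of its log2 ratios to those 3 was 0.153 to 0.160, against 0.110 to 0.126 among those others. No member and no other named pathway gene changed its edgeR call when this library was left out.

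The members lie on 9 chromosomes (positions from GENCODE vM39, GRCm39). Tgfb1 is at chr7:25386390-25404506, Tgfb2 at chr1:186354985-186438294, Tgfb3 at chr12:86102756-86126301 and Bmp4 at chr14:46620250-46636745. Tgfbr1 is at chr4:47353134-47414931 and Tgfbr2 at chr9:115913361-116004800, on the same chromosome as Smad6 at chr9:63860341-63929793. Smad7 is at chr18:75500374-75529006, Skil at chr3:31148816-31176740 and Id1 at chr2:152566218-152579544. Exons of genes on the opposite strand that are also in the table overlap 4 members: Ttll5 shares 179 exon bases with Tgfb3, Gm15217 and Gm15222 share 452 and 1178 with Bmp4, Gm32435 shares 61 with Tgfbr1 and Gm4668 shares 443 with Tgfbr2. The libraries were made with a stranded kit, per the study's methods. The strand setting and the annotation used for counting are not stated, so how reads in these stretches were assigned is uncertain.

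Across the members, 8 of 10 were higher and 1 lower in sorafenib than in DMSO at 48 h, and the receptor gene Tgfbr1 did not pass the test. The members' median log2 fold change was 0.64, against -0.05 over all tested genes. At 7 days 4 were higher and 3 lower, with a median of 0.09 against 0.02. The drug changed much of the transcriptome, and edgeR (quasi-likelihood test, Benjamini-Hochberg over 20444 genes, adjusted p under 0.05) called 54.6% of the tested genes at 48 h, 26.9% as higher, and 56.8% at 7 days, 28.9% as higher and 27.9% as lower. Among the 10646 tested genes that averaged 100 or more normalized counts, which include every member, the called shares were 76.4% at 48 h, 40.9% as higher, and 76.3% at 7 days. The members' 9 of 10 at 48 h and 7 of 10 at 7 days therefore lie near the share of other well expressed genes. So do the 4 higher and 3 lower at 7 days, while the 8 of 10 higher at 48 h lie above the share of those genes called higher. The members were chosen with earlier results of these data known, so a share above the background is no test of the pathway. The 4 libraries of each treatment did not overlap for 7 of 10 members at 48 h and for 7 of 10 at 7 days, against 48.0% and 56.8% of all tested genes.

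**Figure D1:**
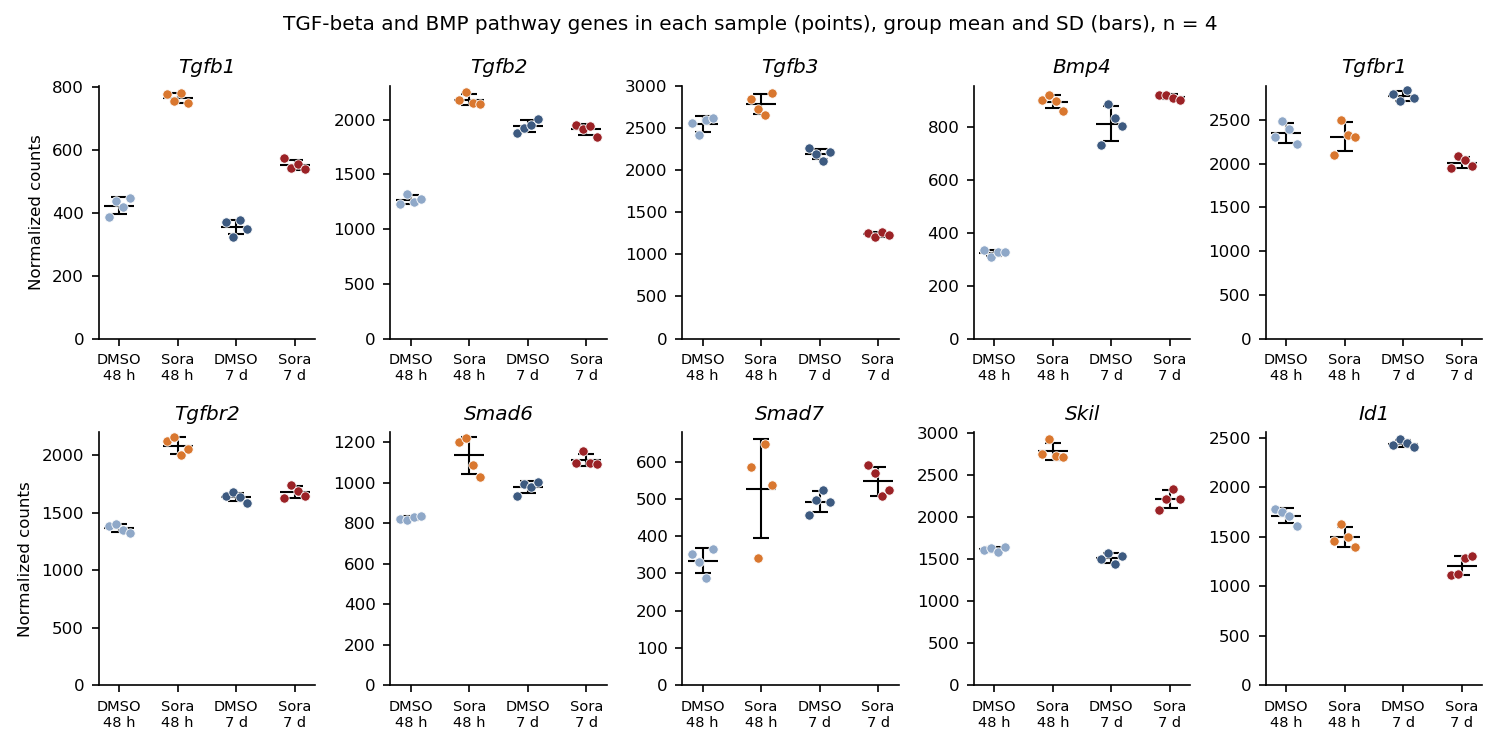
Normalized counts (vertical axis, from 0) of the 10 members in each of the 16 libraries (points), by treatment and time (horizontal axis), with group mean and SD (bars, n = 4). Bmp4 is lowest in DMSO at 48 h, Id1 is highest in DMSO at 7 days, and 1 of the 4 Smad7 points in sorafenib at 48 h lies among the DMSO points.

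Bmp4, a BMP ligand, had 334, 309, 326 and 328 normalized counts in the 4 DMSO libraries and 904, 922, 898 and 861 in the 4 sorafenib libraries at 48 h. Every sorafenib library was far above every DMSO library. At 7 days Bmp4 had 731, 886, 832 and 803 in DMSO and 922, 923, 909 and 903 in sorafenib, so the DMSO libraries were high as well and the groups lay close together without overlap. Its log2 fold change with sorafenib was 1.47 ± 0.054 (SE) at 48 h, a fold of 2.76 (edgeR adjusted p = 6.03e-15), the largest among the members. Bmp4 rose by 0.17 ± 0.049 on the log2 scale at 7 days (edgeR adjusted p = 0.00619). Between 48 h and 7 days in DMSO it rose by 1.33 ± 0.053 (edgeR adjusted p = 9.67e-14), while in sorafenib its log2 difference over time was 0.03 ± 0.049 (edgeR adjusted p = 0.677).

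Tgfb2, a TGF-beta ligand, had 1228, 1321, 1247 and 1271 normalized counts in DMSO and 2182, 2255, 2147 and 2144 in sorafenib at 48 h. All 4 treated libraries were above all 4 controls. At 7 days Tgfb2 had 1880.2, 1918, 1954 and 2003 in DMSO and 1952, 1911, 1943 and 1842 in sorafenib, and the groups overlapped. Tgfb2 rose with sorafenib at 48 h by 0.78 ± 0.036 on the log2 scale (SE; edgeR adjusted p = 1.73e-13), and its log2 difference at 7 days was -0.02 ± 0.035 (edgeR adjusted p = 0.647). Like Bmp4, Tgfb2 was higher at 7 days than at 48 h in DMSO, by 0.61 ± 0.035 (edgeR adjusted p = 1.85e-11).

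Tgfb3, another TGF-beta ligand, had 2565, 2414, 2599 and 2617 normalized counts in DMSO and 2846, 2728, 2660.2 and 2915 in sorafenib at 48 h. The treated libraries were slightly higher, without overlap. At 7 days Tgfb3 had 2259.8, 2194, 2112 and 2212 in DMSO and 1253, 1203, 1268 and 1228 in sorafenib, and every treated library was far below every control. Tgfb3 fell at 7 days with a log2 fold change of -0.83 ± 0.039 (SE; edgeR adjusted p = 2.59e-13). The 48 h log2 fold change was 0.13 ± 0.038 (edgeR adjusted p = 0.00644). That call was lost without sorafenib 48 h replicate 1 (log2 fold change 0.09, edgeR adjusted p = 0.0842) or replicate 4 (0.07, adjusted p = 0.121). It was also lost with scaling by total counts only (0.06, edgeR adjusted p = 0.265) and in a fit of the 48 h libraries alone (0.10, edgeR adjusted p = 0.0781).

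Tgfb1, the most widely expressed TGF-beta ligand in the body, had 387, 437, 418 and 448 normalized counts in DMSO and 777, 756, 780.4 and 751 in sorafenib at 48 h. At 7 days it had 369.8, 325, 376 and 348 in DMSO and 575, 542, 556 and 539 in sorafenib. The treated libraries were higher than the controls at both times, with no overlap. Tgfb1 rose by 0.86 ± 0.054 on the log2 scale at 48 h (SE; edgeR adjusted p = 2.92e-11) and by 0.64 ± 0.055 at 7 days (edgeR adjusted p = 3.64e-09).

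The mix of the TGF-beta ligand genes shifted. Of the summed normalized counts per kilobase of Tgfb1, Tgfb2 and Tgfb3, Tgfb3 made up 63.1% in DMSO and 51.7% in sorafenib at 48 h, and 52.6% and 36.4% at 7 days. Tgfb2 made up 26.1% in DMSO and 33.7% in sorafenib at 48 h, and 38.7% and 46.9% at 7 days, so that it passed Tgfb3 as the leading ligand gene in sorafenib at 7 days. The share of Tgfb1 was 10.7% in DMSO and 14.6% in sorafenib at 48 h, then 8.72% and 16.7%. These group means had SDs of 0.218 to 1.54 percentage points (n = 4), and they compare RNA, not the amount of active protein. They depend on the length used. With the canonical transcript's length, Tgfb1 made up 18.2% in DMSO and 24.1% in sorafenib at 48 h and 15.1% and 27.3% at 7 days, while Tgfb2 (40.0%) still passed Tgfb3 (32.6%) in sorafenib at 7 days.

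Tgfbr2 encodes the receptor that binds TGF-beta first, and Tgfbr1 its partner kinase. Tgfbr2 had 1384, 1403, 1349 and 1324 normalized counts in DMSO and 2126, 2155, 1999.7 and 2050.0 in sorafenib at 48 h, with no overlap. At 7 days Tgfbr2 had 1645, 1675, 1636 and 1587 in DMSO and 1625, 1740.4, 1692 and 1643 in sorafenib, and the groups overlapped. Tgfbr1 had 2304, 2493, 2394 and 2222 in DMSO and 2105, 2504, 2328 and 2307 in sorafenib at 48 h, where the groups overlapped. At 7 days Tgfbr1 had 2800.4, 2713, 2844 and 2750.0 in DMSO and 1947, 2086, 2047 and 1974 in sorafenib, and every treated library was below every control. Tgfbr2 rose at 48 h with a log2 fold change of 0.61 ± 0.036 (SE; edgeR adjusted p = 1.41e-11), while that of Tgfbr1 was -0.03 ± 0.046 (edgeR adjusted p = 0.664). At 7 days Tgfbr1 fell with a log2 fold change of -0.46 ± 0.046 (edgeR adjusted p = 3.21e-08), and that of Tgfbr2 was 0.04 ± 0.036 (edgeR adjusted p = 0.431). One receptor gene was thus higher early and the other lower late.

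Within each library, the log2 ratio of normalized counts of Tgfbr2 over Tgfbr1 averaged -0.78 in DMSO and -0.15 in sorafenib at 48 h, and -0.76 and -0.27 at 7 days. The DMSO libraries of both times had similar ratios and all sorafenib libraries were higher. The log2 ratio of Tgfb3 over Tgfb2 averaged 1.01 and 0.35 at 48 h and 0.18 and -0.63 at 7 days, lower in every sorafenib library than in every DMSO library of its time. These pairs of genes were chosen after their values were seen, so the ratios are a description with no test, and they compare groups, not the levels of the genes of a pair.

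**Figure D2:**
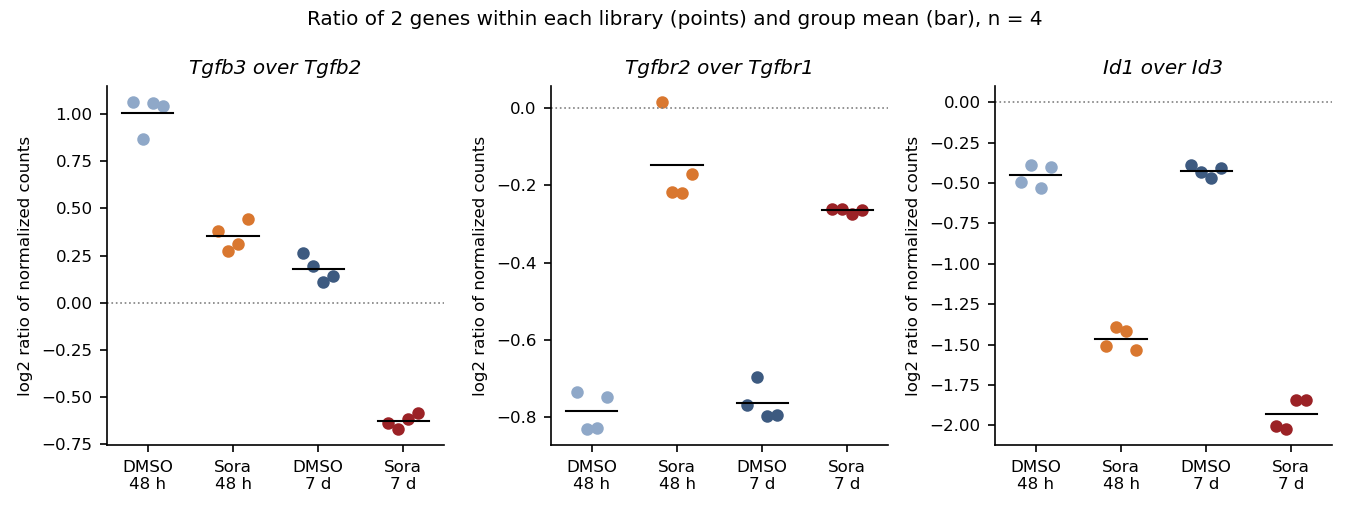
Log2 ratio of the normalized counts of a pair of genes within each library (vertical axis) by treatment and time (horizontal axis), with points for the 16 libraries and bars for group means (n = 4). Sorafenib libraries lie below the DMSO libraries of their time for Tgfb3 over Tgfb2 and Id1 over Id3, and above them for Tgfbr2 over Tgfbr1.

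Smad6 and Smad7 encode inhibitory SMADs, which block the receptors and are themselves induced by the pathway, Smad6 mainly in the BMP branch. Smad6 had 819, 814, 831 and 834 normalized counts in DMSO and 1202, 1222, 1089 and 1027 in sorafenib at 48 h, with no overlap. At 7 days Smad6 had 935, 993, 979 and 1002 in DMSO and 1098, 1156, 1099 and 1093 in sorafenib, again higher in every treated library. Smad6 rose at both times, with log2 fold changes of 0.46 ± 0.049 (SE; edgeR adjusted p = 1.05e-07) and 0.19 ± 0.048 (edgeR adjusted p = 0.00244).

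Smad7 had 353, 329.7, 289 and 366 normalized counts in DMSO and 585, 342, 648 and 537 in sorafenib at 48 h. The value of 342 belongs to replicate 2, the library that stood apart, and it alone overlaps the controls. Smad7 rose at 48 h with a log2 fold change of 0.67 ± 0.128 (SE; edgeR adjusted p = 0.000139), and of 0.82 without that library (edgeR adjusted p = 2.66e-14). At 7 days Smad7 had 457, 498, 524 and 493 in DMSO and 591, 569, 507 and 524 in sorafenib, which overlapped, and its log2 fold change was 0.15 ± 0.12 (edgeR adjusted p = 0.309). With sorafenib 48 h replicate 2 left out of the fit, that 7 day value was 0.15 and passed (edgeR adjusted p = 0.0374), as it did in a fit of the 7 day libraries alone (0.14, edgeR adjusted p = 0.025).

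Skil encodes SnoN, a nuclear corepressor of SMAD proteins that the pathway induces. Skil had 1601, 1632, 1581 and 1644 normalized counts in DMSO and 2749, 2931, 2731 and 2712 in sorafenib at 48 h. At 7 days it had 1499, 1571, 1439 and 1537 in DMSO and 2079, 2216, 2337 and 2215 in sorafenib. The treated libraries were higher at both times with no overlap. Skil rose by 0.78 ± 0.04 on the log2 scale at 48 h (SE; edgeR adjusted p = 1.2e-12) and by 0.55 ± 0.04 at 7 days (edgeR adjusted p = 2.93e-10).

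Id1, a helix-loop-helix protein gene and a direct target of BMP signalling, was the only member called lower at both times. Id1 had 1779, 1756, 1714 and 1606 normalized counts in DMSO and 1459, 1632, 1501 and 1399 in sorafenib at 48 h, where the highest treated library, replicate 2, overlapped the lowest control and the other 3 lay below all controls. At 7 days Id1 had 2427, 2488, 2446 and 2405 in DMSO and 1117, 1129, 1286 and 1305 in sorafenib. All treated libraries were then far below all controls. Id1 fell with log2 fold changes of -0.20 ± 0.054 at 48 h (SE; edgeR adjusted p = 0.00453) and -1.01 ± 0.054 at 7 days (edgeR adjusted p = 1.92e-12). Without sorafenib 48 h replicate 2 the 48 h value was -0.24 (edgeR adjusted p = 4.02e-06).

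Id3, another BMP target of the same family, went the other way. Id3 had 2508, 2298, 2472 and 2116 normalized counts in DMSO and 4148, 4279, 4014 and 4060.2 in sorafenib at 48 h. At 7 days Id3 had 3174, 3349, 3385 and 3191 in DMSO and 4491, 4583, 4611 and 4682 in sorafenib, so the groups overlapped at neither time. Id3 was higher with sorafenib at both times, with log2 fold changes of 0.81 ± 0.045 (SE; edgeR adjusted p = 3.57e-12) and 0.49 ± 0.044 (edgeR adjusted p = 7.19e-09). The log2 ratio of Id1 over Id3 within a library averaged -0.45 in DMSO and -1.46 in sorafenib at 48 h, and -0.42 and -1.93 at 7 days, with no overlap. Like the other ratios, this one was chosen after the values were seen.

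Promoters are shown for 4 of the 8 members that rose together at 48 h, to let the reader see which SMAD-binding letters they hold. The sequences are RefSeq promoters (GRCm38.p6) from 250 bases before to 50 bases after the gene's start, written 5′ to 3′ on the gene's strand. They are Smad6 at chr9:64022010-64022309, Tgfb2 at chr1:186705940-186706239, Tgfbr2 at chr9:116175314-116175613 and Bmp4 at chr14:46390620-46390919, all on the minus strand. Capitals mark matches on either strand to the SMAD box CAGAC, which reads GTCTG from the opposite strand, to the palindrome GTCTAGAC, which holds no SMAD box as searched here, and the GC-rich SMAD letters GGCGCC.
Smad6: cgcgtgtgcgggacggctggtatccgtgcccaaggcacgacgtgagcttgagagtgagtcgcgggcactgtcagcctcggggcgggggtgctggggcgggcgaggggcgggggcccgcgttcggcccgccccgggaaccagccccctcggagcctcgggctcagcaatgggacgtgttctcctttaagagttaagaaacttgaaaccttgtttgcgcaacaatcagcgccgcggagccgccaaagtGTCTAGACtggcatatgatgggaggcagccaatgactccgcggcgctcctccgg
Tgfb2: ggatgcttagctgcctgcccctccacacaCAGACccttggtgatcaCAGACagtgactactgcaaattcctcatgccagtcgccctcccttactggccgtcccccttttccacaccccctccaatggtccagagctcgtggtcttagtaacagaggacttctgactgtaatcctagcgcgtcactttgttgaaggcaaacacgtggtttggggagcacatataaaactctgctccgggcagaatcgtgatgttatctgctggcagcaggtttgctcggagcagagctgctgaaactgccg
Tgfbr2: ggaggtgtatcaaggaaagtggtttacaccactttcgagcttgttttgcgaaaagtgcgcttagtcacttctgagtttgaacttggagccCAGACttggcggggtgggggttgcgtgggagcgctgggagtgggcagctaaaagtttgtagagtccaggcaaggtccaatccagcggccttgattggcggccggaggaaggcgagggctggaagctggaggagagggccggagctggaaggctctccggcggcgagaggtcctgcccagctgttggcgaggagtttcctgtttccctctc
Bmp4: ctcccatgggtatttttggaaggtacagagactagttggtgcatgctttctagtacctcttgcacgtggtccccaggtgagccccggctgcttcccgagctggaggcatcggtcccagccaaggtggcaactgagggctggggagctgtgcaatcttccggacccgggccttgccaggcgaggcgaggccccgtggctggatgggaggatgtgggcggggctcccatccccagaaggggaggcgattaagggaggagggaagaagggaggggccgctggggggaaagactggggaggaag

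The Smad6 promoter holds 1 palindrome, the Tgfb2 promoter 2 SMAD boxes and the Tgfbr2 promoter 1 SMAD box, while none of the 3 motifs is in the 300 bases of Bmp4. The promoter of Tgfb1, which also rose at 48 h, is not shown and holds none of them. Entries on chromosome 18, where Smad7 lies, were left out of the search for the members' promoters. Promoters elsewhere matched 6 of the 10 members (Tgfb1, Tgfb2, Bmp4, Tgfbr1, Tgfbr2 and Smad6), with 7 entries because Tgfbr1 has 2. Among these 6 members, 3 have a SMAD box, 1 the palindrome and 1 GGCGCC. Of all 32851 promoters of this length, 49.6% hold the SMAD box, 0.213% the palindrome and 11.9% GGCGCC, so a SMAD box in 3 of 6 is near the share of all promoters. A match is a description of letters and not a bound site. Tgfb3, Skil and Id1 had no entry, and the promoter of Smad7 was not examined.

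The question whether the response differed between the times was tested as the 7 day log2 fold change minus the 48 h one. This difference was negative and passed the test for all 10 members, where edgeR called 36.8% of all tested genes, 21.3% as lower, and 55.6% of the well expressed genes, 36.8% as lower. All 10 members lower is a larger share than either. This is a description, since the members were chosen with earlier results of these data known. The members' median difference was -0.55, against 0.02 over all tested genes. Bmp4 had the largest difference at -1.30 ± 0.073 (SE; edgeR adjusted p = 2.34e-11). Tgfb3 followed with -0.95 ± 0.054 (edgeR adjusted p = 2.62e-11), then Id1 with -0.82 ± 0.076 (edgeR adjusted p = 4.49e-08) and Tgfb2 with -0.80 ± 0.05 (edgeR adjusted p = 1.04e-10). The receptor genes had -0.57 ± 0.051 (Tgfbr2, edgeR adjusted p = 2.45e-08) and -0.44 ± 0.065 (Tgfbr1, adjusted p = 2.04e-05). Smaller differences were -0.27 ± 0.069 for Smad6 (edgeR adjusted p = 0.00359) and -0.23 ± 0.057 for Skil (adjusted p = 0.00266). With scaling by total counts only, Smad6 (-0.18, edgeR adjusted p = 0.0734) and Skil (-0.14, adjusted p = 0.0934) no longer passed.

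For 2 members the difference lay close to the threshold. Tgfb1 had -0.22 ± 0.077 (edgeR adjusted p = 0.033). It no longer passed without DMSO 48 h replicate 1 (-0.15) or 3 (-0.18), sorafenib 48 h replicate 1 (-0.18), 3 (-0.18) or 4 (-0.20), DMSO 7 day replicate 1 (-0.20) or 3 (-0.19), or sorafenib 7 day replicate 2 (-0.21) or 4 (-0.21), with edgeR adjusted p-values from 0.0603 to 0.125. Tgfb1 also missed with total counts only (-0.12), with at least 10 counts required in every sample (-0.15) and with the replicate number as a block (-0.22, edgeR adjusted p = 0.0567). Smad7 had a difference of -0.52 ± 0.175 (edgeR adjusted p = 0.0235). It no longer passed without DMSO 48 h replicate 3 (-0.43) or sorafenib 48 h replicate 1 (-0.45), 3 (-0.38) or 4 (-0.49), with edgeR adjusted p-values from 0.0518 to 0.0963. Without sorafenib 48 h replicate 2, the library that stood apart, the Smad7 difference was -0.67 (edgeR adjusted p = 4.75e-08).

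**Figure D3:**
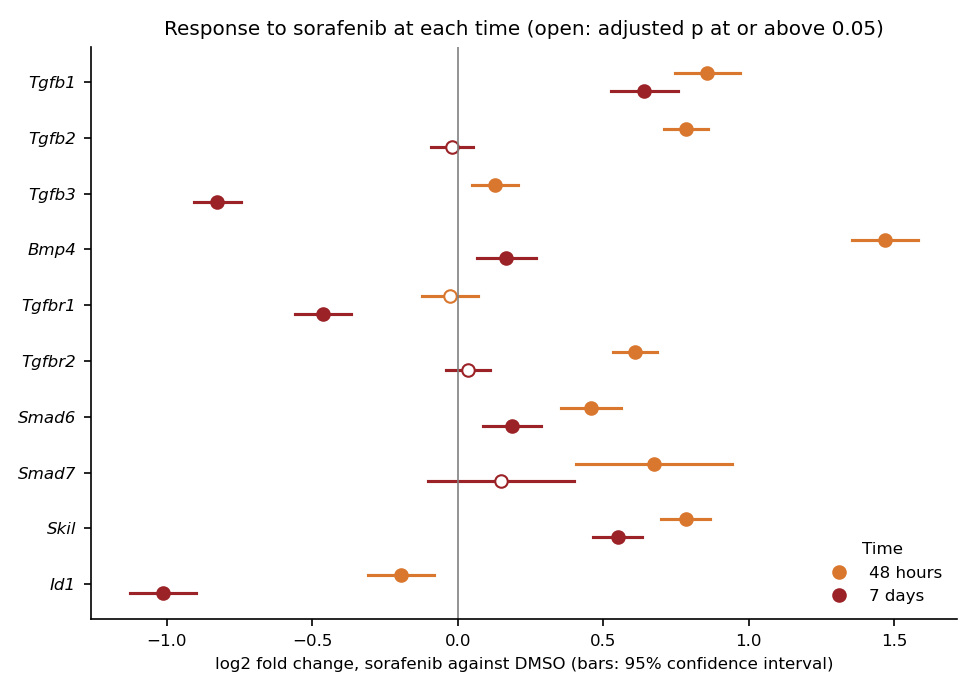
Log2 fold change of sorafenib against DMSO (horizontal axis) of each member (vertical axis) at 48 h and 7 days, with 95% confidence intervals, n = 4 per group. Filled points passed the edgeR test, and every member's 7 day point lies to the left of its 48 h point.

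The members also differed between the times in DMSO alone. Between 48 h and 7 days in DMSO, 7 of 10 members rose and 2 fell, where edgeR called 49.4% of all tested genes, 23.9% as higher, and 71.7% of the well expressed genes, 38.1% as higher. The 7 of 10 higher are above both shares, again for members chosen with earlier results known. Culture time and any difference in handling between the times cannot be told apart. The members' median was 0.25, against -0.01 over all genes. Bmp4 and Tgfb2 rose as given above, Smad7 rose by 0.56 ± 0.125 (SE; edgeR adjusted p = 0.00087) and Id1 by 0.51 ± 0.053 (edgeR adjusted p = 8.85e-08). Tgfbr1, Tgfbr2 and Smad6 rose by 0.24, 0.26 and 0.25 on the log2 scale. Tgfb1 and Tgfb3 fell, with log2 changes of -0.26 and -0.22. Skil had -0.10 ± 0.04 (edgeR adjusted p = 0.0579). It passed without DMSO 48 h replicate 3 (-0.11), any 1 of the sorafenib 48 h replicates (-0.10 each time), DMSO 7 day replicate 2 (-0.11) or sorafenib 7 day replicate 1 (-0.10). It also passed with total counts only (-0.15), at least 10 counts in every sample (-0.11) and the DMSO libraries alone (-0.09).

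In sorafenib, no member rose between 48 h and 7 days and 7 of 10 fell, where edgeR called 39.7% of all tested genes, 22.3% as lower, and 58.3% of the well expressed genes, 36.9% as lower. The 7 of 10 lower are a larger share than either, with the same limit on how the members were chosen. Tgfb3 fell by most, with a log2 change of -1.17 ± 0.039 (SE; edgeR adjusted p = 6.61e-15). Tgfb1 fell with -0.47, Skil with -0.33, Tgfbr2 with -0.31, Id1 with -0.31, Tgfbr1 with -0.20 and Tgfb2 with -0.19. Bmp4, Smad6 and Smad7 had 0.03, -0.03 and 0.03 and did not pass. Without sorafenib 48 h replicate 2 the Smad7 value was -0.12 (edgeR adjusted p = 0.174), and that of Smad6 was 0.01 (adjusted p = 0.837), so neither kept its sign. The drug, time and difference comparisons use the same 16 libraries, so they are not independent of each other.

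Levels can be compared between genes only per length, here as normalized counts per kilobase of the gene's exons. In DMSO at 48 h Id1 had the highest level with 966 ± 43.1 (SD, n = 4), then Tgfb3 with 489, Tgfbr1 with 355, Smad6 with 232 and Tgfb2 with 202. Skil (159.9) and Tgfbr2 (155) followed and overlapped each other, as did the lowest genes, Tgfb1 (83.1) with Smad7 (70.4) and Smad7 with Bmp4 (61.8). In sorafenib at 48 h the order was Id1 (844), Tgfb3 (535), Tgfbr1 (349), Tgfb2 (349), Smad6 (320.0), Skil (275), Tgfbr2 (237), Bmp4 (171), Tgfb1 (151) and Smad7 (111, or 124 without replicate 2). There the neighbours from Tgfbr1 to Skil overlapped.

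At 7 days in DMSO the normalized counts per kilobase were 1376 for Id1, 421 for Tgfb3, 419 for Tgfbr1, 309.8 for Tgfb2, 275 for Smad6, 186 for Tgfbr2, 155 for Bmp4, 149.7 for Skil, 104 for Smad7 and 69.8 for Tgfb1. Overlapping neighbours were Tgfb3 with Tgfbr1 and Bmp4 with Skil. In sorafenib at 7 days they were 681 for Id1, 313 for Smad6, 306 for Tgfb2, 304 for Tgfbr1, 237 for Tgfb3, 219 for Skil, 191 for Tgfbr2, 174 for Bmp4, 115 for Smad7 and 109 for Tgfb1. Neighbours from Smad6 to Tgfbr1, Tgfb3 with Skil, and Smad7 with Tgfb1 overlapped there. Tgfb3 thus went from next to Id1 to below Tgfbr1.

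These orders depend on the length used. With the canonical transcript's length every level was higher, from 1.04 times for Tgfbr2 to 1.88 times for Bmp4 and 2.29 times for Tgfb1, and Smad7 was the lowest member in all 4 groups. Tgfb1 then stood above Smad7 at 7 days, with 160.1 against 109 normalized counts per kilobase in DMSO and 249.6 against 122 in sorafenib. In sorafenib at 7 days Bmp4 (328) also passed Tgfb3 (298). Id1 stayed the highest member in all 4 groups.

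The rest of the pathway was read from 8 lists of 106 other genes, of which 93 were tested. At 48 h 49 rose and 22 fell of these 93 in sorafenib, with a median log2 fold change of 0.37 against -0.05 over all tested genes. These 76.3% are near the 76.4% that edgeR called among well expressed genes and above the 54.6% among all. At 7 days 45 rose and 29 fell (79.6%, against 76.3% and 56.8%), with a median of 0.19 against 0.02. The 7 day minus 48 h difference was called higher for 15 and lower for 39 of the 93 (58.1%, against 55.6% and 36.8%). Without sorafenib 48 h replicate 2, 51 were higher and 23 lower of 92 tested at 48 h, and the difference was higher for 19 and lower for 44. By list, called shares at 48 h and 7 days were 50% and 66.7% for ligands and 61.5% and 92.3% for receptors. SMADs had 66.7% at both times, latency and activation 88.9% and 100%, and antagonists 92.3% and 69.2%. Brakes had 91.7% at both times, TGF-beta targets 83.3% and 72.2%, and BMP targets 100% at both times. Of well expressed genes, 40.9% were called higher at 48 h and 35.8% at 7 days.

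Other ligands split: of 18 tested, 4 rose and 5 fell at 48 h and 5 rose and 7 fell at 7 days. Inhbb and Inhba, which encode activin subunits, rose most, with log2 fold changes of 4.94 and 3.43 at 48 h and 3.91 and 3.08 at 7 days. Inhba had 53.6 to 70.3 normalized counts in DMSO and 629 to 794 in sorafenib at 48 h. Gdf10, a ligand also called BMP3b, fell, with log2 fold changes of -2.20 and -3.55. Of 13 tested receptors and coreceptors, 3 rose and 5 fell at 48 h and 3 rose and 9 fell at 7 days, and the median went from -0.06 to -0.56. The coreceptor Tgfbr3 (betaglycan), which presents TGF-beta2 to Tgfbr2, fell with -1.46 and -2.06. The activin receptors Acvr2b and Acvr1b fell with -1.45 and -1.03 at 48 h and -1.66 and -0.57 at 7 days, and the BMP coreceptor Rgmb with -1.56 at 7 days.

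Among the 6 signal-carrying SMADs, 2 rose and 2 fell at 48 h and 3 rose and 1 fell at 7 days. Without sorafenib 48 h replicate 2, 4 rose and 2 fell at 48 h, and their median log2 fold change went from 0.09 to 0.23. Smad9 and Smad1, of the BMP branch, rose with log2 fold changes of 1.25 and 0.67 at 48 h and 1.23 and 1.25 at 7 days, while Smad5, of the same branch, fell with -0.26 and -0.30. All 9 genes of latency and activation of TGF-beta were tested, and 8 rose and 0 fell at 48 h and 6 rose and 3 fell at 7 days. Itgav, an integrin subunit that activates latent TGF-beta, rose with 1.20 and 0.71. Its partner Itgb8 rose with 1.11 at 48 h and fell with -0.91 at 7 days. The latent TGF-beta binding protein genes parted, since Ltbp2 had 3.24 and then -0.94, and Ltbp1 had 0.97 and then 2.44.

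Of 13 secreted antagonists 9 rose and 3 fell at 48 h, with a median of 1.43 (1.37 with a gene at 0 in a whole group set to its bound). At 7 days 6 rose and 3 fell, with a median of 0.10. The BMP antagonist Chrd rose with 4.05 and 4.48, and Bmper, a BMP-binding protein, with 2.82 and 0.86. The activin antagonist Fst fell with -1.35 and -1.92, and Dcn, a matrix protein that binds TGF-beta, had 0.43 and then -2.30. Of 12 intracellular and membrane brakes, 8 rose and 3 fell at both times. Smurf1, a ubiquitin ligase for SMADs and receptors, rose with 1.20 and 1.43, whereas the decoy receptor Bambi fell with -0.82 and -1.74. Ldlrad4, an inhibitor of TGF-beta signalling, rose with 0.82 at 48 h and the ubiquitin ligase Nedd4l with 0.82 at 7 days.

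Of 18 known TGF-beta target genes 11 rose and 4 fell at 48 h, with a median log2 fold change of 1.29, and 11 rose and 2 fell at 7 days, with a median of 0.40. Many of these genes also answer to other signals. Ccn2 (connective tissue growth factor) had 308, 273, 322 and 291 normalized counts in DMSO and 17719, 20411, 19424 and 16991 in sorafenib at 48 h, and 3557, 4443, 4096 and 4243 in DMSO and 24961, 24568, 24703 and 24725 in sorafenib at 7 days. The groups were far apart at both times, and the DMSO libraries of 7 days lay between the 48 h groups. Ccn2 rose with log2 fold changes of 5.97 ± 0.078 (SE; edgeR adjusted p = 1.97e-21) and 2.60 ± 0.063 (edgeR adjusted p = 8.58e-18). The smooth muscle actin gene Acta2 rose with 3.81 and 1.39. Snai2, a transcription factor of epithelial to mesenchymal transition, rose with 1.30 and 3.31.

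Tagln, an actin-binding protein gene and target of TGF-beta, rose with 3.89 at 48 h, and at 7 days its log2 fold change was 0.19 ± 0.11 (SE; edgeR adjusted p = 0.16). The 7 day value passed without sorafenib 7 day replicate 1 (0.30, edgeR adjusted p = 0.00977), without sorafenib 48 h replicate 2 (0.19, adjusted p = 0.0154) and in a fit of the 7 day libraries alone (0.19, adjusted p = 0.00885). Of 4 tested BMP target genes other than Id1, 4 rose and 0 fell at 48 h and 3 rose and 1 fell at 7 days. Atoh8, a transcription factor gene induced by BMP in liver, rose with 0.76 and 0.34. Id2 rose with 0.37 at 48 h and fell with -0.15 at 7 days, a call lost without DMSO 7 day replicate 2 (-0.13) or when every gene with a count was tested (-0.13). Of the genes named from these lists, Acvr1b, Rgmb, Ltbp1, Chrd, Bambi, Ldlrad4, Nedd4l, Acta2 and Snai2 lie in the stretch lowered in sorafenib 48 h replicate 2. Without that library, the 48 h log2 fold changes of those named at 48 h were -0.86 for Acvr1b, 1.10 for Ltbp1, 4.17 for Chrd, -0.68 for Bambi, 0.96 for Ldlrad4, 3.93 for Acta2 and 1.41 for Snai2.

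**Figure D4:**
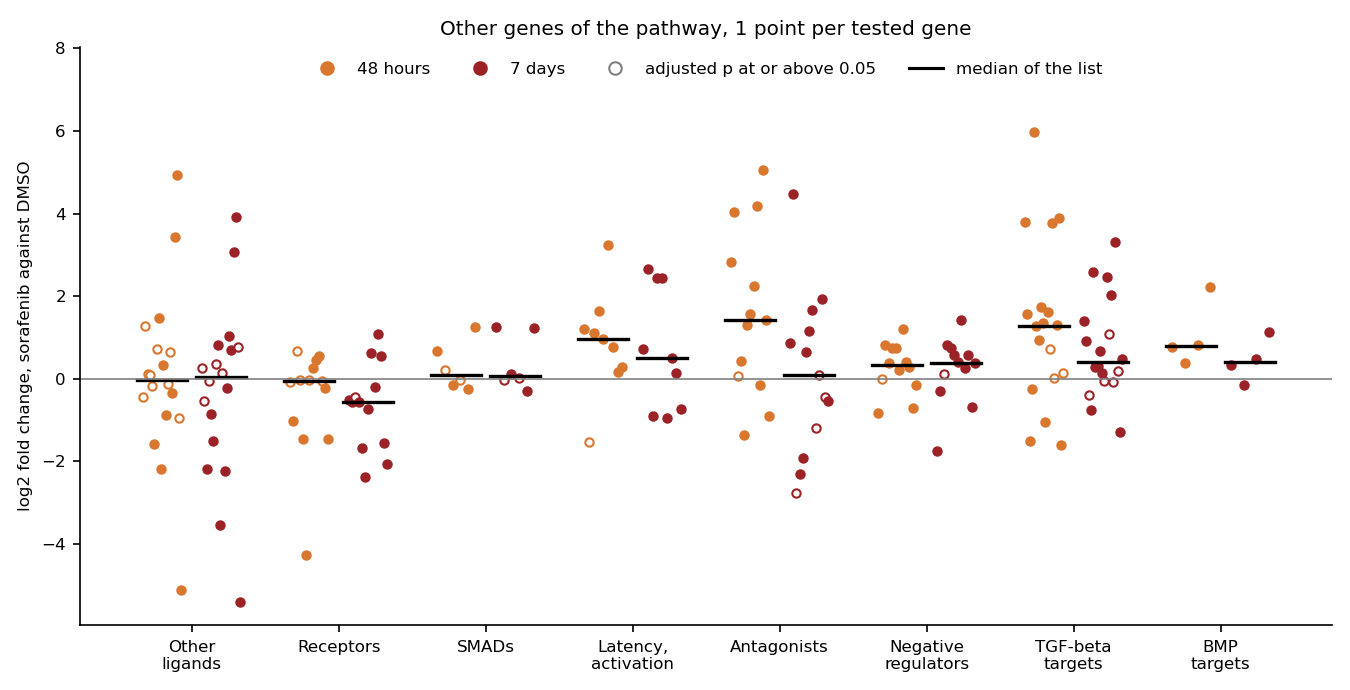
Log2 fold change of sorafenib against DMSO (vertical axis) for every tested gene of the 8 lists of other pathway genes (horizontal axis) at 48 h and 7 days, with bars at list medians, filled points passing the edgeR test and n = 4 per group. Antagonists and TGF-beta targets have the highest medians at 48 h, 1.43 and 1.29, and receptors the lowest at 7 days, -0.56.

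Genes whose pattern over the 16 libraries was most like that of a member were found by the root mean square (RMS) difference of log2 normalized counts, each gene centred on its own mean, among tested genes that averaged 100 or more normalized counts. For Bmp4 they were Vcl (0.0979) and Rnd3 (0.111), and for Id1 Myo18a (0.103) and Mark1 (0.105), where the number is the RMS difference. Tgfb1 was closest to Klf13 (0.0738) and Slc44a2 (0.0903), Tgfb2 to Nln (0.0666) and Rasal2 (0.0669) and Tgfb3 to Nup210 (0.0808) and Dnmt3a (0.118). Tgfbr1 was closest to Rps6kb1 (0.0514) and Arl1 (0.0533), and Kirrel (0.0492) was among the genes closest to Tgfbr2. Smad6 was closest to Trappc4 (0.0532) and Atp6v1e1 (0.0551), Smad7 to Mcrip2 (0.116) and Twf1 (0.117) and Skil to Atr (0.0555) and Lamb1 (0.0568). Mcrip2 and Twf1 lie, like Smad7, in the stretch lowered in sorafenib 48 h replicate 2. Without that library they were in places 22 and 23 among the genes most like Smad7, Vcl and Rnd3 in places 3 and 7 for Bmp4, Trappc4 and Atp6v1e1 in places 4 and 6 for Smad6 and Myo18a and Mark1 in places 3 and 6 for Id1. For Tgfb1, Tgfb2 and Tgfbr1 the first gene kept its place and the second went to places 5, 3 and 3, and for Tgfb3 and Skil both kept theirs. The members' own RMS deviation from their mean ran from 0.175 for Tgfbr1 to 0.624 for Bmp4.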

How the data were processed

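Polyadenylated RNA was sequenced in 16 libraries, and the deposited gene counts were made by the authors with STAR 2.7.1a and featureCounts 2.0.6, who tested them with DESeq2 1.40.2, per their processing notes. The sorafenib dose comes from the study's methods. The counts were analysed with edgeR 4.0.16 in R 4.3.3: genes with at least 10 counts in total, TMM normalization, 1 quasi-likelihood model with 4 group coefficients, and Benjamini-Hochberg adjustment over 20444 genes. Sorafenib was compared with DMSO at each time, 7 days with 48 h in each treatment, and the drug responses with each other. Named beside the members were up to 3 called genes per list and drug comparison with the largest change and 100 or more normalized counts on average, up to 2 of the nearest genes per member, markers, Trp53 and Myc; 3 genes picked in these ways are not reported here. Alternatives were DESeq2 1.42.0, its size factors, total counts, other filters, fewer libraries, a replicate block and leaving out each library. The members and lists were chosen with earlier results of these data known. Depth was 16586254 to 30828427 counts per library.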

Additional observations from a re-analysis of the deposited data

Results flagged for a closer look

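In 12 of 156 groups of 4 libraries, 1 library lay apart from the other 3, with a gap to its nearest neighbour beyond the 95% critical share of the whole range (Dixon). Chance gives about 1 in 20 such groups. Sorafenib 48 h replicate 2 was the library apart in 6 of them: lowest for Ldlrad4 (0.967 of the range), Ltbp1 (0.944), Bambi (0.881) and Acta2 (0.842), which lie in the stretch where its counts were lowered, and highest for Skil (0.832) and Inhba (0.867), which do not. Sorafenib 48 h replicate 4 was lowest for Atoh8 (0.846). DMSO 7 day replicate 1 was highest for Gdf10 (0.895) and lowest for Bmper (0.839) and Nedd4l (0.865). Sorafenib 7 day replicate 2 was highest for Smad6 (0.897) and replicate 3 lowest for Tgfbr3 (0.873).

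The response to sorafenib differed between 7 days and 48 h for 33 of 39 genes tested, lower at 7 days for 28 and higher for 5 (edgeR, difference of log2 fold changes). Among all tested genes 36.8% differed, and 55.6% of those averaging 100 or more normalized counts. Beside the members, the genes were picked for a large response at 48 h or at 7 days, which favours a difference. The members' differences were -0.22 for Tgfb1, -0.80 for Tgfb2, -0.95 for Tgfb3, -1.30 for Bmp4, -0.44 for Tgfbr1, -0.57 for Tgfbr2, -0.27 for Smad6, -0.52 for Smad7, -0.23 for Skil and -0.82 for Id1. Among the other pathway genes, lower differences were -1.03 for Inhbb, -1.35 for Gdf10, -0.60 for Tgfbr3, -4.18 for Ltbp2, -0.48 for Itgav, -2.02 for Itgb8, -1.97 for Bmper, -0.57 for Fst, -0.69 for Ldlrad4, -0.92 for Bambi, -3.37 for Ccn2, -3.70 for Tagln, -2.41 for Acta2, -0.33 for Id3, -0.42 for Atoh8, -0.53 for Id2, -1.34 for Rgmb and -2.73 for Dcn. Higher differences were 0.58 for Smad1, 0.24 for Smurf1, 1.47 for Ltbp1, 0.45 for Nedd4l and 2.01 for Snai2.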

How the results depend on the processing

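Of 1140 log2 fold changes of the members under the alternatives, 1106 kept their side of the threshold, and those that passed also kept their direction. A further 22 no longer passed, 12 newly passed and 0 changed sign with a call. The 1106 include values without a call that changed sign, such as those of Smad6 and Smad7 over time in sorafenib without sorafenib 48 h replicate 2. For the other named pathway genes, an addition made after seeing the data, the counts in the same order were 1949, 6, 17 and 0 of 1972. The 1949 also include values without a call that changed sign, such as the difference between the drug responses for Smad9. The order of levels per kilobase kept 7 of 9 neighbouring pairs in DMSO at 48 h when the canonical transcript's length replaced the length of all exons, since Tgfbr2 and Tgfb1, and Smad7 and Bmp4, exchanged places. In an addition made after seeing the data, the canonical length kept 5 of 9 pairs in sorafenib at 48 h, 7 in DMSO at 7 days and 5 in sorafenib at 7 days. With that length, another addition, the share of Tgfb1 among the TGF-beta ligands moved by more than 1.5 times in all 4 groups, from 10.7% to 18.2% in DMSO at 48 h. Without sorafenib 48 h replicate 2, also an addition, the gene named as nearest was no longer so for Smad7, Bmp4, Smad6 and Id1.

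Leaving out each library gave 10609 to 11608 genes called at 48 h, 10981 to 12590 at 7 days, 7073 to 8761 for their difference, 9419 to 11242 over time in DMSO and 7355 to 9047 over time in sorafenib. Members called were 8 to 9, 7 to 8, 8 to 10, 9 to 10 and, in every case, 7.

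With the replicate block, 10644, 11027, 6987, 9531 and 7481 genes and 9, 7, 9, 9 and 7 members were called, in the same order. Replicates of equal number did not pair: the mean correlation of their deviations from the group mean across genes, which are not independent replicates, was -0.00895 at 48 h and 0.0678 at 7 days.

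Limits: with n = 4, small differences such as that of Tgfb1 lie close to the threshold. Smad7 lies where 1 library was lowered, and the cause of that step was not tested. The counts do not separate isoforms, and RNA gives neither ligand secretion nor SMAD phosphorylation, which were not analysed here. Marker genes moved with the drug. No group lacked the p53 and Myc background.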
